A study of Mus musculus with 4 samples.

Results

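The Zfp genes are the mouse genes named Zfp and a number, most of which encode proteins with arrays of C2H2 zinc fingers that bind DNA. The 344 elements described here are those of the authors' deposited STARR-seq table whose centre lay within 100 kb of the transcription start site (TSS) of such a gene, with no nearer start of another protein-coding gene. Zfp36, a CCCH finger protein that binds RNA, was left out. They were 344 of 24232 listed elements and of 22068 linked to a coding gene by the same rule. Of these, 170 lay within 1 kb of the start and are called promoter-proximal, and 174 lay farther away and are called distal. They belonged to 207 of the 364 Zfp genes annotated in GENCODE M21.

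All 4 samples were biological replicates of 1 group of T helper 17 (Th17) cells, taken as primary cells from mice of strain C57BL/6NJ and activated in culture. For 3 days the cells received antibodies to CD3e (0.25 µg/mL), CD28 (1 µg/mL), interleukin-4 (2 µg/mL) and interferon-gamma, together with interleukin-6, and the reporter library was carried as an episome after transient transfection; age and sex are not given by the labels. The labels assign all replicates to the same donor record, so no spread between donors enters the deposited p-values. How these p-values treat the spread between the replicates is not stated in the sources used here, and that spread may be technical. In STARR-seq a genomic fragment sits inside the transcribed part of a reporter, and the abundance of its RNA over the plasmid input measures the activity of that fragment away from its own chromosome. Reporter RNA carries no transcripts of the cells themselves, so the Th17 identity could not be checked against marker genes, and nothing here measures expression of the Zfp genes.

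Each listed element has a log2 fold change and a q-value from the authors, computed over all replicates together. Neither per-replicate values nor depth were available, so no standard deviation can be given. An element is called higher where the deposited log2 fold change is positive, taken as more reporter RNA than input, and lower where it is negative; the table's own text does not state the direction. All listed elements have q under 0.01, and they are 21.1% of the 114722 tests that the q-values imply. The shares below are therefore shares of listed elements, not of all fragments near a gene.

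Many Zfp proteins carry a KRAB domain before the fingers. KRAB zinc finger proteins bind DNA, often in transposable elements, and recruit the co-repressor TRIM28 (KAP1), which brings the histone methyltransferase SETDB1 and leads to H3K9 trimethylation. Their genes sit in clusters that arose by repeated local duplication, so neighbouring members and their promoters resemble each other. From coding sequences translated from the genome, 217 of the 364 Zfp genes matched a pattern of the KRAB A box and 323 had at least 3 fingers. Genes called without KRAB below are those without such a match. The pattern can miss divergent forms of the domain, so some of these genes may still encode one. Clusters were defined as at least 5 Zfp genes with gaps of at most 500 kb, and 168 genes fell into 16 of them.

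The promoters of Zfp931, Zfp971 and Zfp972, neighbours on chromosome 2 with a KRAB match, are shown because they are related in sequence and were all higher; that of Zfp326, whose product is part of a complex that links transcription to splicing, is shown as the lowest promoter-proximal element. Each line gives the bases from 250 to 61 before the RefSeq start on build GRCm38.p6, 5′ to 3′ on the gene's strand (chr2:178078486-178078675, minus; chr2:178023034-178023223, plus; chr2:177925711-177925900, minus; chr5:105876318-105876507, plus). Capitals mark the exact letters CCAATCA, taken here as the NF-Y box and searched on both strands.
Zfp931: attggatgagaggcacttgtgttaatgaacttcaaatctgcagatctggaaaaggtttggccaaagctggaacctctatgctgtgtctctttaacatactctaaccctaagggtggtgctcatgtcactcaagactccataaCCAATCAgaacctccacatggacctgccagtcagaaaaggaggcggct
Zfp971: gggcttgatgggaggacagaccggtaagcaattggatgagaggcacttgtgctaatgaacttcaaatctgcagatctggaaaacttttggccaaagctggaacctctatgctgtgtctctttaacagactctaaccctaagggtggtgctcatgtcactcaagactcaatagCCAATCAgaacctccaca
Zfp972: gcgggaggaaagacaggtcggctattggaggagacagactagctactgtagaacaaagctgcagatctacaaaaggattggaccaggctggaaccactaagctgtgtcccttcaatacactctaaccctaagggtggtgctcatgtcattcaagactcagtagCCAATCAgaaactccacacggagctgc
Zfp326: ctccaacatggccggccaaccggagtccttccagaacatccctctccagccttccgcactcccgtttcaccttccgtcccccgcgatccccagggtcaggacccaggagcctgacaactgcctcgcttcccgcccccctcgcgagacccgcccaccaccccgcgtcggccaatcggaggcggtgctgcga
Identity over the alignment was 70% between Zfp931 and Zfp971, 74.6% between Zfp971 and Zfp972, and 67.1% between Zfp931 and Zfp972. Against Zfp326 the chromosome 2 promoters aligned at 47.4% to 48.6%. The NF-Y box starts 108 bases before the start in Zfp931, 78 in Zfp971 and 87 in Zfp972. The Zfp326 window holds ccaatcg near its end, which differs from CCAATCA in the last letter only and was therefore not marked or counted. Of the 369 RefSeq promoter windows of Zfp genes with this length, 11.9% hold the box, against 4.82% of all 32851 windows. The Zfp326 window has 18 CpG dinucleotides, while the chromosome 2 windows have 1 to 3.

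The next sequences, all on the plus strand of GRCm38.p6, come from the elements with the smallest q-values and from the highest and a low distal element. Those of Zfp945, Zfp219, Zfp52 and Zfp53 are windows of 300 bases inside a longer element, and those of Zfp957 and Zfp827 are whole elements; Zfp945 is promoter-proximal and the others are distal. Capitals mark the AP-1 site TGANTCA in Zfp945 (chr17:22866413-22866712), Zfp52 (chr17:21536768-21537067) and Zfp53 (chr17:21478231-21478530), the cAMP response element TGACGTCA and an NF-kB match in Zfp219 (chr14:52022761-52023060), and the GC box GGGCGG in Zfp827 (chr8:79029476-79029750). The Zfp957 element (chr14:79142976-79143125), shown because it shares its sequence with that of Zfp53, has no AP-1 match and no capitals.
Zfp945: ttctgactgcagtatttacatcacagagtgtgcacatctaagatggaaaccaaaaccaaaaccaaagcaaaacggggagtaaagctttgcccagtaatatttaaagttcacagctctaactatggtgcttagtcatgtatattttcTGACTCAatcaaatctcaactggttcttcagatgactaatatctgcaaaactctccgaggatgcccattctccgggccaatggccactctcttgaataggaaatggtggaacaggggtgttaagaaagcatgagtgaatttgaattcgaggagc
Zfp219: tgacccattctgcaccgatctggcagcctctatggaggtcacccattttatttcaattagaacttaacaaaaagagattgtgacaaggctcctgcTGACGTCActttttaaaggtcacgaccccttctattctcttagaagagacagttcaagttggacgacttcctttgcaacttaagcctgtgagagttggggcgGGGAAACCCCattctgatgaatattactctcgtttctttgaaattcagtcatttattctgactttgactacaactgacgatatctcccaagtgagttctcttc
Zfp52: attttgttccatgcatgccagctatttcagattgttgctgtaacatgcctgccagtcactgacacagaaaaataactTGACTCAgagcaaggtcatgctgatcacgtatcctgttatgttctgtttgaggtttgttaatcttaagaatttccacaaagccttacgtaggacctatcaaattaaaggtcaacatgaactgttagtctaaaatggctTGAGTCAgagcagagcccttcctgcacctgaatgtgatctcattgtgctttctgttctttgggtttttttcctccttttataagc
Zfp53: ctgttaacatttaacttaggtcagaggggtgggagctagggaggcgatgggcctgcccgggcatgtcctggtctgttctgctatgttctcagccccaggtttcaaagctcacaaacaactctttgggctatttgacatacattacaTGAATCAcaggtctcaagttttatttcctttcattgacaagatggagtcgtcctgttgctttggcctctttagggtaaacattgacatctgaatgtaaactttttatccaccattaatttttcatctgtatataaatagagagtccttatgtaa
Zfp957: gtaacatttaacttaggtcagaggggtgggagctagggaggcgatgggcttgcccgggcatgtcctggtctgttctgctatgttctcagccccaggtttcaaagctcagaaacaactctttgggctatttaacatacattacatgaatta
Zfp827: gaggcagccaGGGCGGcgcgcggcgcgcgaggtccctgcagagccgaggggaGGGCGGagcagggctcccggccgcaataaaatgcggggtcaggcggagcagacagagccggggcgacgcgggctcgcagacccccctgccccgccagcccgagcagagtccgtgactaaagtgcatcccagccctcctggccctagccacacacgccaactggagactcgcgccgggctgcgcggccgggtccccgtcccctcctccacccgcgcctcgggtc
In windows of 300 bases at the centre of all linked distal elements, the AP-1 site was present in 37.7%, the NF-kB motif in 5.74%, the GC box in 12.9% and the cAMP response element in 1.17%. The NF-Y box was in 4.29% of those windows and in 6.67% of the windows at promoter-proximal centres. A match describes letters in a window and does not show that a factor was bound.

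Most listed Zfp promoters had negative and most listed distal Zfp elements positive log2 fold changes, as did linked elements as a whole; if the table's direction is the reverse of the one taken here, higher and lower change places throughout. Of the 170 promoter-proximal Zfp elements, 34 were higher (20%), and their median log2 fold change was -1.08. Over all 9513 linked promoter-proximal elements 13.3% were higher, with a median of -1.22. Of the 174 distal Zfp elements, 118 were higher (67.8%), with a median of 1.06, against 70.3% and a median of 1.10 for all 12555 linked distal elements. The promoter-proximal Zfp elements had a median GC of 62.2% and other linked ones 64.7%. Weighting the other promoter-proximal elements to the GC deciles of the Zfp elements gave 20.1% higher, close to the share at Zfp promoters. The same weighting gave 68.4% for distal elements.

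A listed promoter-proximal element was present at 157 of the 364 Zfp genes (43.1%), and 37.8% of the 21877 coding genes had one. Among the 217 genes with a KRAB match it was present at 67 (30.9%), and among the 147 without a match at 90 (61.2%). By gene, 64 Zfp genes had higher elements alone, 96 had lower elements alone and 47 had both. Where a gene had several elements they are not independent. A lower promoter together with a higher distal element occurred at 37 genes.

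The promoters of Zfp genes with and without a KRAB match differed in how many were higher. Of 68 promoter-proximal elements at KRAB genes, 27 were higher (39.7%), with a median log2 fold change of -0.80. At genes without a KRAB match 7 of 102 were higher (6.86%), and the median was -1.26. The KRAB promoters were less GC-rich, with a median of 56.0% GC and a CpG ratio (observed over expected) of 0.633, against 64.0% and 0.784. Other linked promoter-proximal elements with the GC content of the KRAB set were higher in 35.4%, and those with the GC content of the set without KRAB in 9.91%. With the narrower KRAB pattern that was chosen first, before the one used here was widened to further forms of the A box seen in these proteins, the shares were 16 of 46 (34.8%) and 18 of 124 (14.5%).

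The counts were also made without elements that have near-identical copies. An element was said to have a copy where at least 90% of it aligned elsewhere in the genome at 95% identity or more. All 23 Zfp elements with a copy were higher, 11 promoter-proximal and 12 distal, and over all linked elements 460 of 463 with a copy were higher (99.4%). Without copies, 16 of 57 KRAB promoters were higher (28.1%), while other elements at their GC content were higher in 32.4%. No element at a gene without a KRAB match had a copy among the promoters, and the count stayed at 7 of 102. Elements with partial copies only, over at least 50% of the element at 90% identity or more, stayed in the counts without copies. By this looser measure, which also counts near-identical places, Zfp758 had 1 and Zfp53 at 8.91 had 39. Zfp366 at 3.95 had 48, but it also had a near-identical copy and so was left out of the counts without copies. How the authors treated reads with several places is not given in the sources used here, and the part of copies in the values was not tested.

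**Figure D1:**
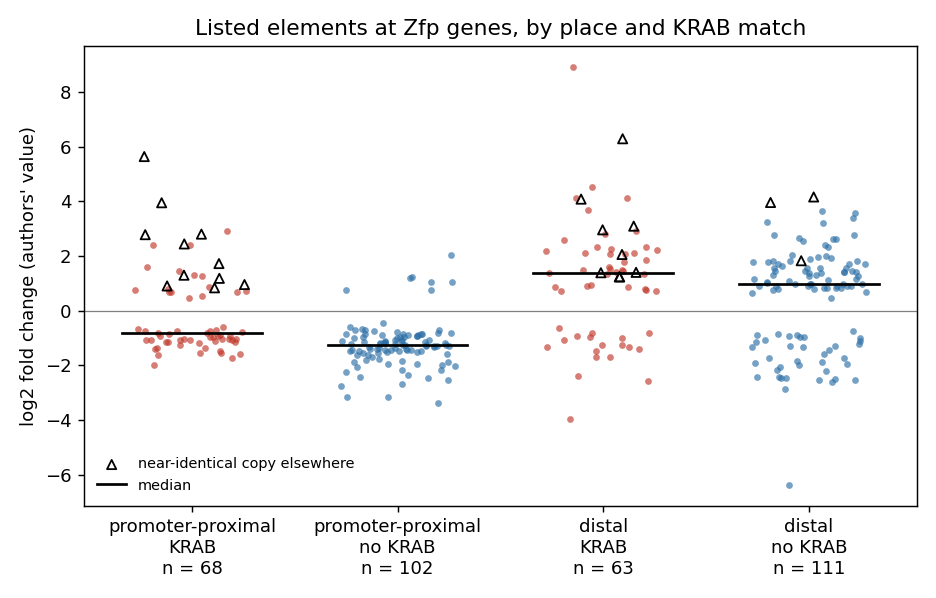
Deposited log2 fold change (vertical axis) of each Zfp element, by place and by KRAB match of the gene. Points are elements, open triangles are elements with a near-identical copy elsewhere, and black lines are medians; the triangles all lie above 0, and the promoter-proximal elements without KRAB lie mostly below 0.

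The CpG ratio separated the promoter-proximal Zfp elements further. Below a ratio of 0.5, 18 of 29 were higher (62.1%), against 49.2% of the other linked promoter-proximal elements in that range. Without copies this was 10 of 21 (47.6%) against 46.5%. From 0.8 upwards only 1 of 58 Zfp elements was higher (1.72%), against 6.91% of the others. Within the lowest range 16 of 23 elements at KRAB genes and 2 of 6 at genes without KRAB were higher. Between 0.5 and 0.7 the counts were 5 of 20 and 0 of 24, between 0.7 and 0.8 they were 5 of 14 and 5 of 25, and from 0.8 they were 1 of 11 and 0 of 47. Without copies the KRAB counts in the lowest ranges were 8 of 15 and 2 of 17, and the other counts did not change. By GC content, none of the 51 promoter-proximal Zfp elements at 65% GC or more was higher, against 2.54% of the others, and 17 of 26 were higher between 50% and 55%, against 50.4%; without copies the latter was 10 of 19 (52.6%) against 48.4%.

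**Figure D2:**
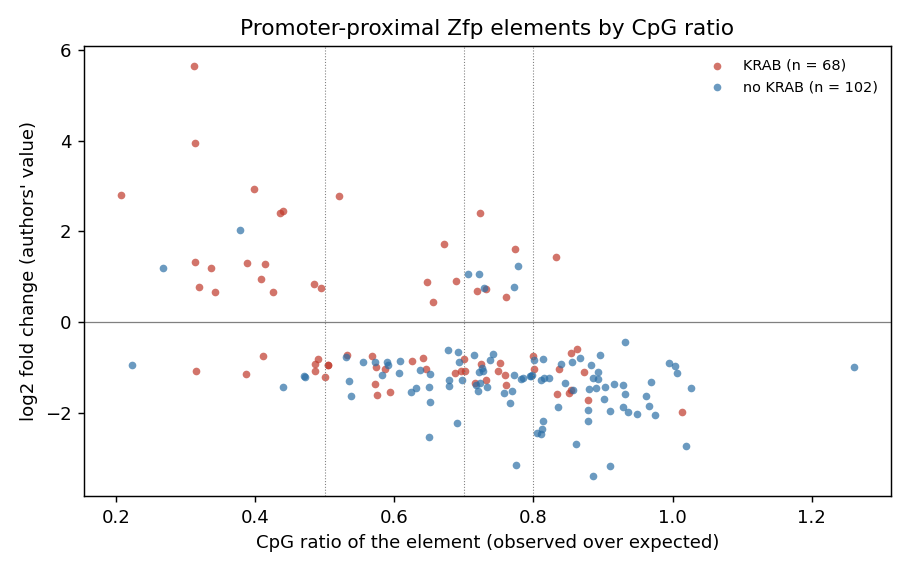
Deposited log2 fold change (vertical axis) against the CpG ratio (horizontal axis) of the 170 promoter-proximal Zfp elements, coloured by KRAB match, with dotted lines at 0.5, 0.7 and 0.8. Of the 58 elements at 0.8 or more, 1 lies above 0, and of the 29 below 0.5, 18 do.

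Of the 10 highest promoter-proximal values, 9 belonged to KRAB genes, and 6 of the 10 elements had copies. Zfp931 had the highest, 5.63 (q = 2.92e-08, 750 bp, 17 copies), followed by its neighbours Zfp970 at 3.95 (14 copies) and Zfp972 at 2.80 (5 copies), while Zfp971 in the same stretch reached 1.18 (18 copies). Zfp772 had 2.78 with 7 copies and Zfp934 2.44 with 1 copy. Without a near-identical copy the highest were Zfp945 at 2.93, Zfp758 at 2.41, Zfp941 at 2.40 and Zfp750 at 2.04. Of these, Zfp758 had 1 partial copy. Zfp945 also had the smallest q of the promoter-proximal elements, 4.80e-17, and its element of 425 bp, shown above with its AP-1 site, lay in an intron centred 567 bp after the start. Zfp750, a regulator of epidermal differentiation without a KRAB match, was the exception by class, and its element was centred 555 bp before the start.

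The 10 lowest promoter-proximal elements all belonged to genes without a KRAB match. In the authors' deposited table Zfp326 had -3.38 (q = 2.40e-10), Zfp652 -3.16 (q = 7.31e-10), Zfp423 -3.14, Zfp532 -2.74, Zfp592 -2.68 (q = 6.75e-11) and Zfp629 -2.54. Zfp423 is a many-fingered factor known from preadipocyte commitment, and its element was centred 995 bp after the start, just inside the promoter limit. The smallest q-value of a lower promoter was that of Zfp319, 5.08e-11, at a log2 fold change of -2.18. All 10 lower promoters with the smallest q-values had GC above 63%, from 63.6% at Zfp771 to 77.3% at Zfp592.

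The list of 45 Zfp genes with a known role held 36 with an element, and 42 promoter-proximal elements at 33 of these. Of those 42, 3 were higher (7.14%, against 13.3% of all linked promoter-proximal elements), with a median of -1.34. The higher ones were Zfp207 (0.76), which helps attach microtubules to kinetochores, Zfp143 (0.77), a general promoter-binding activator, and Zfp750 (2.04). Lower ones included Zfp335 (-0.84), needed for T cell maturation, Zfp384 (-1.09), Zfp131 (-1.28), Zfp263 (-0.60) and Zfp148 (-1.15). Zfp568 (-1.16), the KRAB repressor of a placental Igf2 promoter, was lower as well. Distal elements of the same list were higher in 35 of 53 cases (66.0%), near the 70.3% of all linked distal elements, with a median of 0.97. No element was listed for 9 genes of the list, among them Zfp57 and Zfp445, which protect imprints, Zfp42 (Rex1), a marker of pluripotent cells, and Zfp683 (Hobit), a factor of tissue-resident lymphocytes.

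Opposite values at promoter and distal elements recurred at single genes of this list. Zfp219 had -1.35 at its promoter (q = 4.62e-09) and 3.23 at an element of 675 bp centred 2355 bp before the start; with a q of 3.47e-18 this was the smallest of all 344 elements, and its window above holds the cAMP response element and the NF-kB match. Zfp407 had -1.46 at the promoter and 3.40 in an intron. Zfp536, a repressor of neuronal differentiation, had -2.19 at the promoter and 3.58 and 3.21 at intronic elements. Zfp809, the KRAB protein that silences murine leukaemia virus DNA in embryonic cells, had -0.72 at the promoter and 2.08 at a centre 10864 bp before it. At Zfp644 the values were -1.32 and 1.83, the latter at an element with 1 copy, and at Zfp746 -1.37 and 0.74. Zfp292, Zfp148 and Zfp521 had lower elements only, with distal values of -1.60, -1.30 and -1.97.

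Genes with many listed elements were mostly without KRAB. There were 137 genes with a single element and 19 with at least 4, of which 3 had a KRAB match. The 19 genes had 93 elements: all 21 of their promoter-proximal elements were lower, and 46 of their 72 distal elements were higher (63.9%). Over all linked elements 13.3% of promoter-proximal and 70.3% of distal ones were higher, so most promoters are lower and most distal elements higher in general. Higher and lower elements occurred together at 16 of the 19.

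Zfp281, a repressor in pluripotent stem cells, had the most, 9. Its promoter stood at -1.95. From 5′ to 3′ its distal elements had 1.55, -1.31, 2.63, 0.88, 2.32, 1.40, -1.06 and 1.13, so 6 of 8 were higher. The largest of them, 2.63 (q = 4.96e-14), was centred 12262 bp after the start. Zfp827, Zfp618 and Zfp703 had 6 each. Zfp827 combined -0.79 at the promoter, -2.87 and -1.74 in introns 1026 and 1738 bp after a start, 0.97 and 0.99 in introns farther from a start, and -1.34 outside the gene. The element at -2.87, whose sequence with its GC boxes is given above, had 74.9% GC.

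Zfp957 was alone among these genes in having only higher elements, 5 of them, from 0.91 to 4.16, of which 4 lay in introns of Vwa8. Zfp366 (DC-SCRIPT), a regulator of dendritic cells, had 4 higher elements, up to 3.95 at an element with 1 copy, and 1 lower at -2.42. Zfp704 likewise had 4 higher and 1 lower. At the other end, Zfp184 had 4 distal elements from -1.32 to -0.82 and Zfp777 had 4 lower elements from -1.98 to -0.83. Zfp516, a factor of brown fat, had 4 lower promoter-proximal elements from -1.63 to -0.95, of 50 to 200 bp, and a higher element of 0.90 at 84738 bp before the gene. At Zfp217, values of -1.32 and 1.29 were recorded for neighbouring elements centred 76010 and 76835 bp upstream. At Zfp318, which B cells need to make IgD, the promoter had -2.02 and 3 distal elements had 0.83, 0.90 and 1.81.

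**Figure D3:**
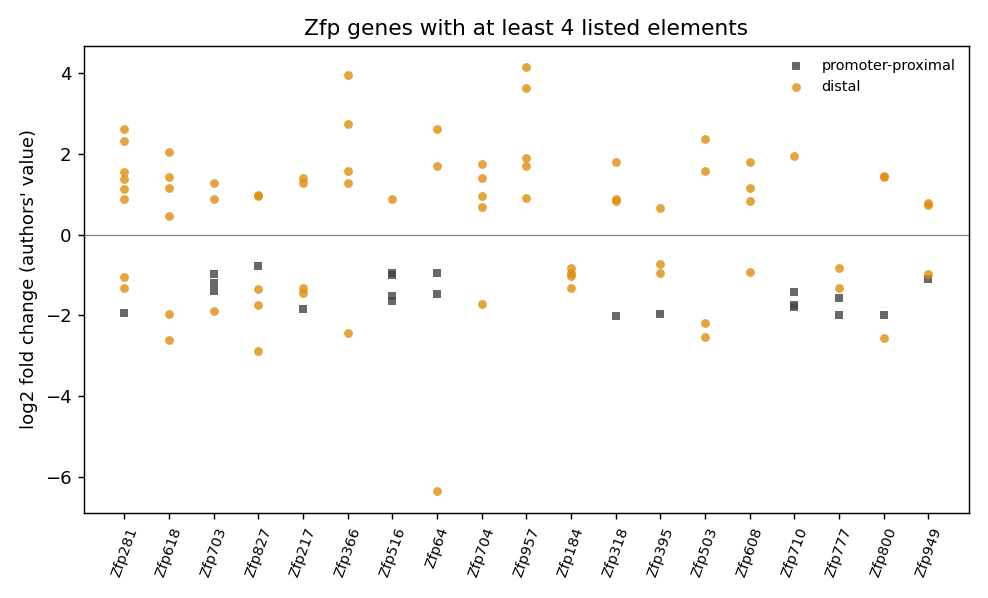
Deposited log2 fold change (vertical axis) of each element of the 19 Zfp genes with at least 4 elements (horizontal axis), with squares for promoter-proximal and circles for distal elements. All squares lie below 0, and the circles lie on both sides at most genes.

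The highest distal value was at Zfp53, 8.91 (q = 7.68e-17), for an element of 900 bp on chromosome 17 (21477701 to 21478600), 10848 bp before the start, of which 79.3% was repeat-masked. It was followed by Zfp991 at 6.28 (125 bp, 4 copies), Zfp947 at 4.53, Zfp957 at 4.16 (150 bp, 156 copies), Zfp981 and Zfp954 at 4.11, and Zfp600 at 4.08 (12 copies). The smallest distal q-values after Zfp219 were those of Zfp52, 4.04e-18 at a value of 2.60, and of Zfp53. The element of Zfp52 lay in the gene, 1411 bp after the start, and both of its AP-1 sites fall in the window shown.

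The elements of Zfp53 and Zfp957, on chromosomes 17 and 14, held the same repeat. The 150 bases of the Zfp957 element aligned inside the Zfp53 element at 96.7% identity, with 4 substitutions. The last of these was T149C, counted from 1 at the first base of the Zfp957 element with its base first. It falls in the AP-1 match marked in Zfp53, TGAATCA, which the Zfp957 element does not have. The pattern searched, TGANTCA, allows any base in the middle. The Zfp957 sequence aligned to 164 places in the genome over at least 50% of its length at 90% identity or more. A listed element overlapped 23 of these, and all 23 were higher, from 2.71 to 8.91 with a median of 3.88. An AP-1 match anywhere in the listed element was present in 7 of the 23, with a median of 4.77, and absent from 16, with a median of 3.85. The match was not limited to the aligned site, and longer elements have more room for one. The 23 also include the elements of Zfp53 and Zfp957 themselves, so these medians do not test the T149C difference. As these places share sequence, their values are not independent, and their part in each other's values was not tested.

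More broadly, all 19 distal Zfp elements that were over 50% repeat-masked were higher, with a median of 2.32, against 89.1% and 2.05 for other linked distal elements of that kind. The 155 with less repeat were higher in 63.9%, against 69.0%. These counts include the 12 distal Zfp elements with near-identical copies, all of which were higher.

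The lowest distal value was -6.36 for an element of 50 bp at 53388 bp before Zfp64, whose other distal elements had 1.71 and 2.62. Next came Zfp382 at -3.96 (100 bp), Zfp827 at -2.87, Zfp618 at -2.62, Zfp870 at -2.57, Zfp800 at -2.55 and Zfp503 at -2.52. The shortest linked elements had 50 bp, and 10 of the 344 Zfp elements had that length.

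Place relative to coding genes went with direction among the distal Zfp elements. Introns and exons here are those of any coding gene, not only of the linked Zfp gene. The 12 distal elements with near-identical copies, all higher, are included. Of 62 in introns, 52 were higher (83.9%), against 72.1% of other linked intronic elements. Between genes 65 of 104 were higher (62.5%), against 72.2%. The 3 in coding exons, at Zfp592 (-2.46), Zfp472 (-2.39) and, named after its value was seen, Zfp853 (-1.92), were lower, as were most of the 437 other linked distal elements in coding exons, of which 24.03% were higher, and 1 of 5 in untranslated regions was higher, against 63.8% of the 243 others there. Among promoter-proximal elements, those centred in untranslated regions were higher in 18 of 71 cases (25.4%), against 9.85% of the others there; without copies this was 11 of 64 (17.2%) against 9.23%. In introns the order was the opposite, with 7 of 53 Zfp elements higher (13.2%) against 18.4%. By distance, 21 of 34 were higher from 1 to 5 kb, 39 of 55 from 5 to 20 kb and 58 of 85 beyond, or 61.8%, 70.9% and 68.2%, against 57.6%, 68.4% and 76.5% of other linked elements.

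The limits of the rule cut through values of either sign. Just inside 1 kb lay Zfp423 (-3.14 at 995 bp), Zfp287 (1.19 at 965 bp) and Zfp651 (-1.22 at 870 bp), and just outside lay Zfp78 (2.12 at 1011 bp), Zfp827 (-2.87 at 1026 bp) and Zfp667 (0.94 at 1029 bp). The last elements within 100 kb were those of Zfp704 (-1.73 at 99015 bp), Zfp386 (1.86) and Zfp608 (1.81), and the first beyond it, which are not members, those of Zfp217 (0.73 at 105285 bp), Zfp120 (2.36) and Zfp618 (-3.68).

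The counts of higher elements are given by cluster, to be read against 13.3% of all linked promoter-proximal and 70.3% of all linked distal elements. The cluster on chromosome 17 from 21008903 to 23586217, with 23 Zfp genes of which 22 matched KRAB, had 21 linked elements, and 16 were higher, 5 of 9 promoter-proximal and 11 of 12 distal. It held Zfp53, Zfp947 and Zfp52, as well as the promoters of Zfp945 (2.93), Zfp758 (2.41), Zfp943 (1.60), Zfp994 (0.96) and Zfp983 (0.77). Its lower promoters were those of Zfp760 (-1.37), Zfp229 (-0.85), Zfp213 (-0.82) and Zfp13 (-0.74). Of the 21 elements of this cluster, 2 had near-identical copies. Partial copies were more common. At its higher elements the looser measure, which also counts near-identical places, gave 67 for Zfp229, 39 and 16 for Zfp53, and 1 and 2 for Zfp983. It gave 1 each for Zfp758, Zfp943, Zfp944, Zfp947 and Zfp994. The higher elements of Zfp51, Zfp52, Zfp160, Zfp820 and Zfp945 had none. On chromosome 4, from 145510759 to 147848366, all 18 genes matched KRAB, and all 7 elements were higher, from 1.32 to 6.28. Of them, 6 were distal and 4 had near-identical copies. The Zfp991 element at 2.09 had no partial copy, and the others had. All 5 elements of the chromosome 7 cluster from 42505726 to 43607169 were higher too, from 0.55 to 3.09, 2 of them with copies.

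Other clusters had mostly lower elements. On chromosome 7 from 29768552 to 30169727, with 15 genes of which 11 matched KRAB, 1 of 11 elements was higher, Zfp84 at 0.45, and the other 8 promoters ranged from -0.75 at Zfp14 to -1.55 at Zfp82. On chromosome 6 from 47830867 to 48602063, all 8 promoter-proximal elements were lower, from -0.58 at Zfp212 to -1.98 at Zfp777, and 2 of 5 distal elements were higher. No element of either had a copy. Over all clusters, 17 of 61 promoter-proximal elements were higher (27.9%), and outside clusters 17 of 109 (15.6%), against the background of 13.3%. Without copies the counts were 15 of 59 (25.4%) and 8 of 100.

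**Figure D4:**
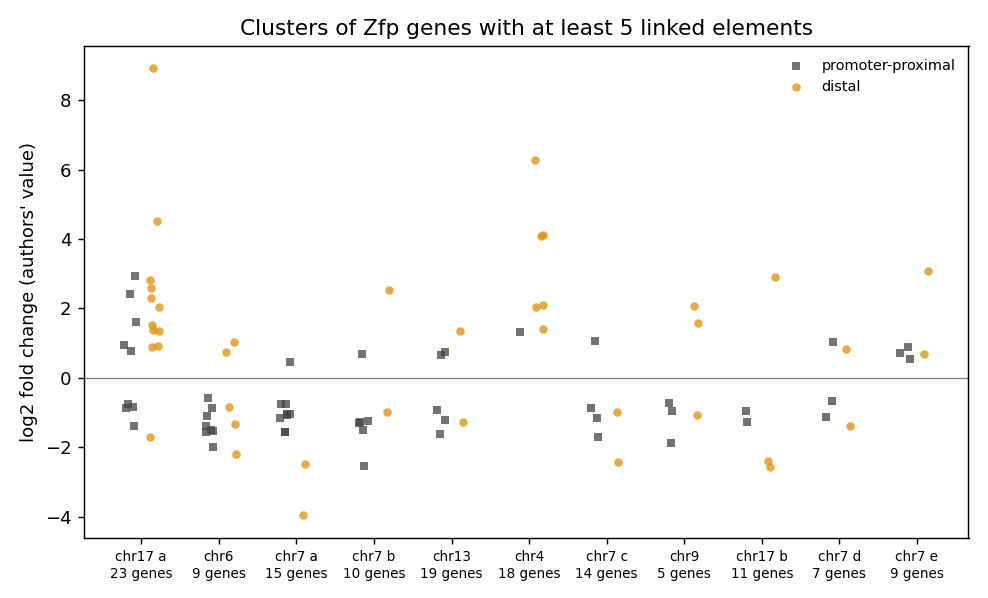
Deposited log2 fold change (vertical axis) of the elements in the 11 clusters of Zfp genes with at least 5 linked elements, with squares for promoter-proximal and circles for distal elements and letters for clusters that share a chromosome. The clusters chr4 and chr7 e lie wholly above 0, and in chr6 and chr7 a nearly all squares lie below 0.

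Matches to 13 motifs were counted in each element over its whole length, and 8 of them, picked with their values known, are described. The NF-Y box was present in 15 of 34 higher promoter-proximal Zfp elements (44.1%) and in 18 of 136 lower ones (13.2%). Other linked promoter-proximal elements held it in 13.6% of the higher and 11.9% of the lower. At genes with a KRAB match 22 of 68 elements had the box, of which 14 were higher. At genes without a match 11 of 102 had it, of which 1 was higher, Zfp446 at 1.05. Elements with the box were higher in 15 of 33 cases (45.5%), against 14.7% of other linked elements with it. Without near-identical copies the count was 7 of 25. The chromosome 2 promoters shown above are among those with copies. Zfp elements with the box had a median GC of 56.9%, against 62.8% for other linked elements with it, and the part of GC in this count was not tested.

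Matches to the STAT motif TTCNNNGAA were in 35.3% of higher and 14.7% of lower promoter-proximal Zfp elements, against 21.6% and 11.04% of the others. The GC box was in 58.8% of the higher and 81.6% of the lower, close to 53.6% and 87.3% of the others. AP-1 matches were in 20.6% of the higher and 11.8% of the lower, against 31.0% and 9.66%. Some matches overlap, as AP-1 and the cAMP response element share letters, and longer elements have more room for any match.

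Among distal Zfp elements AP-1 was the commonest of the activator motifs searched. AP-1, a dimer of Fos and Jun family proteins, is induced by T cell receptor signals. A match was present in 66 of 174 (37.9%), and 56 of those were higher (84.8%); among other linked distal elements 44.2% had a match, and 86.2% of those were higher. Without a match 62 of 108 were higher (57.4%), against 57.7%. NF-kB, which CD28 costimulation activates, matched in 14 distal Zfp elements, of which 13 were higher, and the cAMP response element in 5, all higher; other linked elements with these matches were higher in 82.3% and 88.1%. For the IRF motif GAAANNGAA, 18 of 24 Zfp elements were higher (75%), against 83.4%. The CTCF motif, known from insulators and loop anchors, matched in 6, none of them higher, against 22.9% of 389 other linked elements. The background share of higher distal elements was 70.3%, as above.

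**Figure D5:**
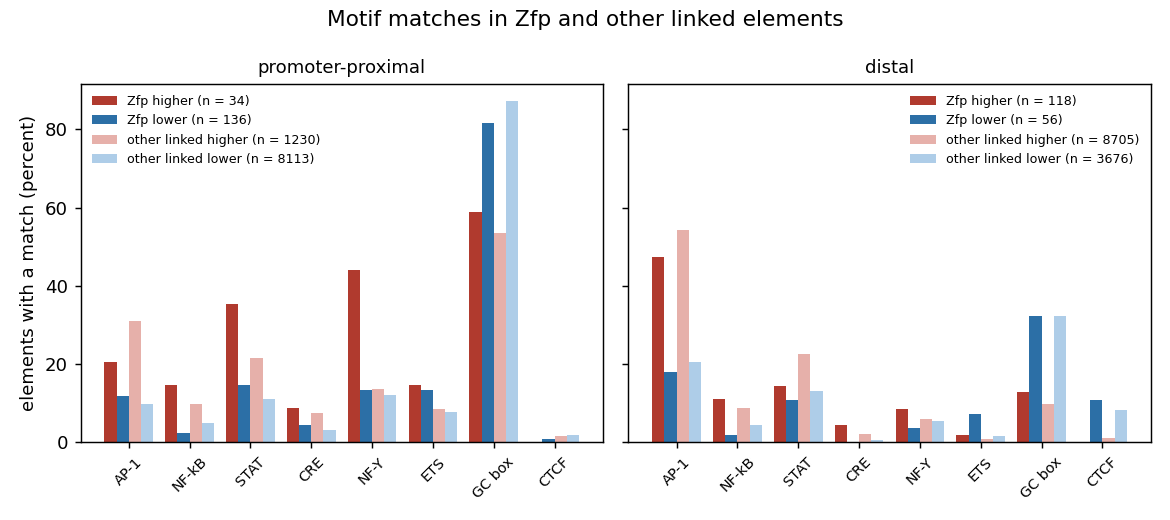
Percentage of elements with a motif match (vertical axis) for 8 motifs (horizontal axis), in promoter-proximal (left) and distal elements (right), for higher and lower Zfp elements and other linked elements. At promoters the NF-Y bar of higher Zfp elements, at 44.1%, stands above the other sets, and at distal elements AP-1 bars are taller for higher elements in both sets.

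Other zinc finger families were set beside the Zfp genes, against the same 13.3% and 70.3% of all linked elements. Zbtb genes, whose proteins carry a BTB domain, had 3 of 33 promoter-proximal elements higher (9.09%) and 31 of 36 distal (86.1%). The Zscan and Zkscan genes had 2 of 8 and 3 of 5. KRAB finger genes under other names had 25 of 33 promoter-proximal elements higher (75.8%), above the 39.7% of KRAB genes named Zfp; without copies this was 8 of 16, and their median GC was 55.1%. Finger genes under other names without KRAB had 14 of 91 promoter-proximal (15.4%) and 66 of 117 distal elements higher (56.4%).

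The list of 22 genes of the KRAB repression pathway held 20 with a linked element. Of their 26 promoter-proximal elements 3 were higher (11.5%), and of 24 distal elements 16 were (66.7%), against the backgrounds of 13.3% and 70.3%. Trim28 itself had promoter-proximal elements at -1.48 and -0.80 alone. Setdb1 had a distal element at 3.62 (q = 5.37e-16), 3336 bp from the start. Trim24, a relative of Trim28, had -1.27 at its promoter and 5 higher distal elements, up to 4.25 (q = 1.97e-16). All elements of Dnmt3a, a de novo DNA methyltransferase, were lower, down to -4.11.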

How the data were processed

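The deposit holds 1 table, with positions on mm10. Per the file headers it rests on the alignments of the 4 replicates together. Its columns hold the authors' log2 fold change, p-value and q-value per element. No source used here names the aligner or the element caller. Each deposited q-value equalled the Benjamini-Hochberg adjustment over 114722 tests within a relative tolerance of 1e-06.

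From this table elements were linked by their centre to the nearest protein-coding TSS of GENCODE M21, and 15 elements on contigs were left out. GC, CpG ratio, repeat masking and 13 motifs came from the GRCm38 sequence. Copies were found with minimap2 2.31-r1302 (k-mer 19, window 10). No protein table was used; KRAB matches came from translated coding sequences, by a pattern widened after the proteins of the genes had been inspected, with the narrower pattern first chosen kept as an alternative. The linking, motif search and shares were tested on simulated data. No test of significance was added; counts are descriptions, read beside shares of linked elements.

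Names were drawn from the 10 highest, lowest and smallest-p elements of each place and direction, genes with at least 4 elements, 45 genes with known roles and clusters with at least 5 elements. Not every member of these lists is named. Elements next to the distance limits of the rule were named as well. Zfp971, Zfp853 and the repeat places of Zfp957 were picked after their values were seen. The members and lists were chosen with earlier results of these data known.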

Additional observations from a re-analysis of the deposited data

How the results depend on the processing

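The shares and medians of higher Zfp elements, and their differences from other linked elements, were recomputed with links within 20 kb, the nearest TSS of any biotype, q under 0.001, log2 fold changes of 1 or more in size, without copies, promoter limits of 500 bp and 2 kb, elements of at least 200 bp, 1 element per gene and without chromosome 7, which held 64 Zfp elements. No share or median crossed its midpoint or sign under these settings. Values that moved were the promoter-proximal difference in the share of higher elements, 6.84 percentage points, which was -0.11 with other elements weighted to the GC deciles, the distal share, 77.2% at q under 0.001, the promoter-proximal median, -1.28, and the distal median, 1.44, with fold changes of that size, and the distal median with 1 element per gene, 1.39. The promoter-proximal difference was also smaller without copies, 2.30, and with any TSS, 2.35. Its counting interval was 1.10 to 13.6 in the main setting, -2.76 to 8.75 without copies and -3.63 to 9.45 with any TSS. Both of the latter include 0. So did the intervals with fold changes of 1 or more in size, -0.56 to 13.9, and without chromosome 7, -0.73 to 13.3. These intervals treat elements as independent, which they are not. The distal difference, -2.49 points, was 2.37 with links within 20 kb, -7.82 with any TSS and -5.92 at q under 0.001. The share at promoters without KRAB, 6.86%, was 14.5% with the narrow KRAB pattern; the narrow pattern was the first choice, and the wider one that the text uses was adopted after seeing the data. Leaving out replicates was not possible, since the table holds no values per replicate. Depth is unknown, and an element absent from the list may have been too thinly covered to pass.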
